A study of Mus musculus with 5 samples.

Results

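The genes described here are 6 channels that have been linked to the sensing of mechanical load, Trpv4, Piezo1, Piezo2, Trpc1, Trpm7 and Trpv2. They were taken by name and are 6 of the 29818 genes counted in single cells from the growth plate cartilage of the knees of newborn mice, in 5 libraries of 1 pup each. The strain label is C57BL/6J for every pup, but the founders of the Col2a1-Cre line were B6SJLF1, and SJL alleles may be left after its crosses to C57BL/6J. Of the 5 littermates, 2 were labelled wild type (WT) and 3 were labelled mutant, which the design text describes as a Col2a1-Cre induced conditional knock-in of Trpv4 p.R594H. The age was postnatal day 5 in the sample labels and day 3 in the design text. In the mutant pups 1 Trpv4 allele is replaced by a construct that carries R594H, and the mutation is expressed only where Cre, driven by Col2a1, has removed a cDNA fragment of the unchanged distal exons. Cells that never made Cre should thus keep the unchanged coding sequence from both alleles, and the deposited counts do not tell the alleles apart. Whether the WT pups carried Cre or the unrecombined construct is not stated in the sources used here.

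TRPV4 is a calcium-permeable channel of the plasma membrane that opens with osmotic stress, warmth and mechanical strain, and cartilage is among the tissues in which it is best known, since activating mutations cause skeletal dysplasias. PIEZO1 and PIEZO2 open directly with membrane tension. PIEZO1 is known for the sensing of flow by blood vessels, and PIEZO2 for touch and for the sense of limb position. TRPC1 is a non-selective cation channel linked to the refilling of calcium stores, TRPM7 joins a channel for magnesium and calcium to a kinase domain, and TRPV2 is known from macrophages and muscle.

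Trpv4 lies on the reverse strand of chromosome 5 (chr5:114622152-114658421, GRCm38, GENCODE M21). The changed arginine codon, CGC at chr5:114628850-114628852, is in exon 11 of 16, and 1335 bases of the transcript follow it. The reference sequence around it is shown because it is the place where the groups differ by design, at chr5:114628820-114628882, read 5′ to 3′ along the gene, with codon 594 in capitals.
Trpv4 codons 584 to 604: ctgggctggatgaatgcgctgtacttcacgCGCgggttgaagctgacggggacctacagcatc

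Piezo1 lies at chr8:122481698-122551329, Trpc1 at chr9:95705082-95750375 and Trpm7 at chr2:126791565-126876230, all on the reverse strand, Trpv2 lies at chr11:62574486-62600515 on the forward strand, and Piezo2 is on chromosome 18. The exons of Piezo1 overlap those of Ctu2, a tRNA-modifying gene on the other strand. Since the counting is not stated to use strand, part of the Piezo1 count could belong to Ctu2, whose own level in all cells was 5.15 ± 0.559 CPM against 123 ± 5.71 CPM for Piezo1.

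Levels are given as CPM, the UMIs of a gene per 1000000 UMIs summed over the cells of a kind in 1 pup, as the mean ± SD over 5 pups, each a separate animal. They are not per gene length, so they are compared between cells and not between genes. A UMI marks 1 captured transcript molecule. After cells with under 200 or over 6000 genes or over 10% mitochondrial UMIs were removed, 82516 cells were left, 13814 to 19133 per pup. Their median depth was 9261 and 8521 UMIs in the WT pups and 6657, 6000 and 7016 in the mutant pups, so depth differed with the label. The limit of 6000 genes had removed 142 and 181 cells in the WT pups and 23, 6 and 12 in the mutant pups. The part of this in the genotype values was not tested. Any 2 libraries shared 3 to 7 cell barcodes. The Y-linked gene Ddx3y had a UMI in 66.3% to 70.1% of the cells of both WT pups and mutant pup 3. Xist was detected in 89.8% (mutant pup 1) and 88.4% (mutant pup 2) of cells, and in 0.109% to 0.174% in the other pups. Sex therefore differed between the labels in part and cannot be fully told apart from them.

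Cells were clustered without the channel genes, and clusters were called X-like from marker lists of cell types. Of 22 classes, 18 had at least 20 cells in every pup, 16 of them with a name, and rankings of classes cover these 18. The Schwann-, skeletal-muscle-, lymphoid- and mast-cell-like classes had fewer cells in some pups and were left out. The labels call the cells chondrocytes. The classes of chondrocyte-like cells held 30234 cells, and a further 20827 cells (25.2%) were rich in Col2a1, the main cartilage collagen, and had no name. Cells of tendon, perichondrium, bone, vessels and blood made up much of the rest. Single markers are given for the classes as a description and not as a check, since each was also used to name them. Prg4 (lubricin) was at 21619 CPM in articular-like chondrocytes, Tnmd at 2804 in tendon- or ligament-like cells, Ibsp at 3401 in osteoblast-lineage-like cells, Csf1r at 598 in macrophage-like cells and Pecam1 at 2432 in endothelium-like cells. Postn, at 2782 CPM in perichondrium-like cells, did not set them apart, since it was at 2800.1 in osteoblast-lineage-like and 2506 in tendon- or ligament-like cells. The osteoblast-lineage-like class was made of 2 unlike clusters, 268 cells with Ibsp at 16028 CPM and Postn at 1037 CPM, and 1218 cells with Ibsp at 106 CPM and Postn at 4027 CPM. Col10a1 was at 30348 CPM in hypertrophic-like and 1159.8 CPM in prehypertrophic-like chondrocytes. Ihh was higher in the first of these, 568 against 174 CPM, so it does not by itself mark the prehypertrophic-like class.

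Clusters are built from the same cells, so levels by class are a description with no test. Tests were therefore made between gates, groups of cells set by the 9 marker genes alone (Col2a1, Ihh, Col10a1, Prg4, Postn, Tnmd, Ibsp, Csf1r and Pecam1), and tested with edgeR's quasi-likelihood test on the summed counts of each pup and gate, with the pup as a block and Benjamini-Hochberg adjustment over 13371 genes. Many genes differ between such cells, and the share of all tested genes past an adjusted p of 0.05 is given beside each comparison. In bulk sums of this kind, fewer expressing cells and fewer transcripts per cell cannot be told apart.

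Trpv4 had its 7 highest class means in the chondrocyte-like classes and in the unnamed cells rich in Col2a1. The mean level was 236 ± 53.3 CPM in prehypertrophic-like chondrocytes, 232 ± 47.3 CPM in cycling cells rich in Col2a1, 222 ± 51.7 CPM in proliferating-like and 196 ± 39.2 CPM in hypertrophic-like chondrocytes. It was lower in resting-like (156 ± 34.5 CPM) and articular-like chondrocytes (149 ± 29.1 CPM) and in the unnamed cells rich in Col2a1 (159 ± 33.7 CPM). The cycling cells rich in Col2a1 joined 2 clusters that differed in Trpv4, 2600 cells at 162 ± 35.2 CPM and 1260 cells at 298 ± 61.5 CPM. Of the 18 classes, the lowest outside cartilage was the perichondrium-like cells at 17.5 ± 6.51 CPM, and the highest the erythroid-like cells at 84.8 ± 45.5 CPM. The erythroid-like class was itself not poor in Col2a1, at 38247 CPM, and joined 2 clusters spread unevenly over the pups, 389 cells with Col2a1 at 42451 CPM and Trpv4 at 78.6 CPM and 268 cells with 14056 and 38.4 CPM. Of its 261 cells in WT pup 1, 216 were in the second cluster, against 3 to 18 cells in each of the other pups. In prehypertrophic-like chondrocytes Trpv4 stood at 296 and 180.4 CPM in the WT pups and 179, 266 and 260.1 CPM in the mutant pups, and in resting-like chondrocytes at 173 and 121 CPM in the WT pups and 117, 185 and 186 CPM in the mutant pups. The ranges of the pups overlapped between these 2 classes, but every pup was higher in its prehypertrophic-like cells (log2 ratio 0.59 ± 0.11, SD, n = 5, and 0.44 with a mitochondrial limit of 20%). The proliferating-like class was also above the resting-like class in 5 of 5 pups (log2 ratio 0.50 ± 0.07), a difference whose mean was -0.09 with the coarser clusters of a Leiden resolution of 0.8, 0.35 at a resolution of 2.5 and 0.16 with a mitochondrial limit of 20%. The proliferating-like class was made of 2 clusters that differed in Trpv4, 245 ± 60.9 CPM in 3936 cells led by Xlr3c and 149.9 ± 26.1 CPM in 2143 cells led by Mt2 and Chil1, and the second of these was not above the resting-like mean. That second cluster scored 1.05 on the proliferating and 0.99 on the resting markers, and 3 of its 10 leading genes, Chil1, Serpina3n and A2m, also led the largest resting-like cluster. The 3 resting-like clusters also scored higher on the proliferating markers (1.27, 1.23 and 1.28) than on the resting markers (1.04, 1.12 and 0.91), so neither name is certain. Hypertrophic-like cells were below prehypertrophic-like cells in 5 of 5 pups (log2 ratio -0.26 ± 0.10), and the ratio was -0.54 after each cell was thinned to 3000 UMIs.

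**Figure D1:**
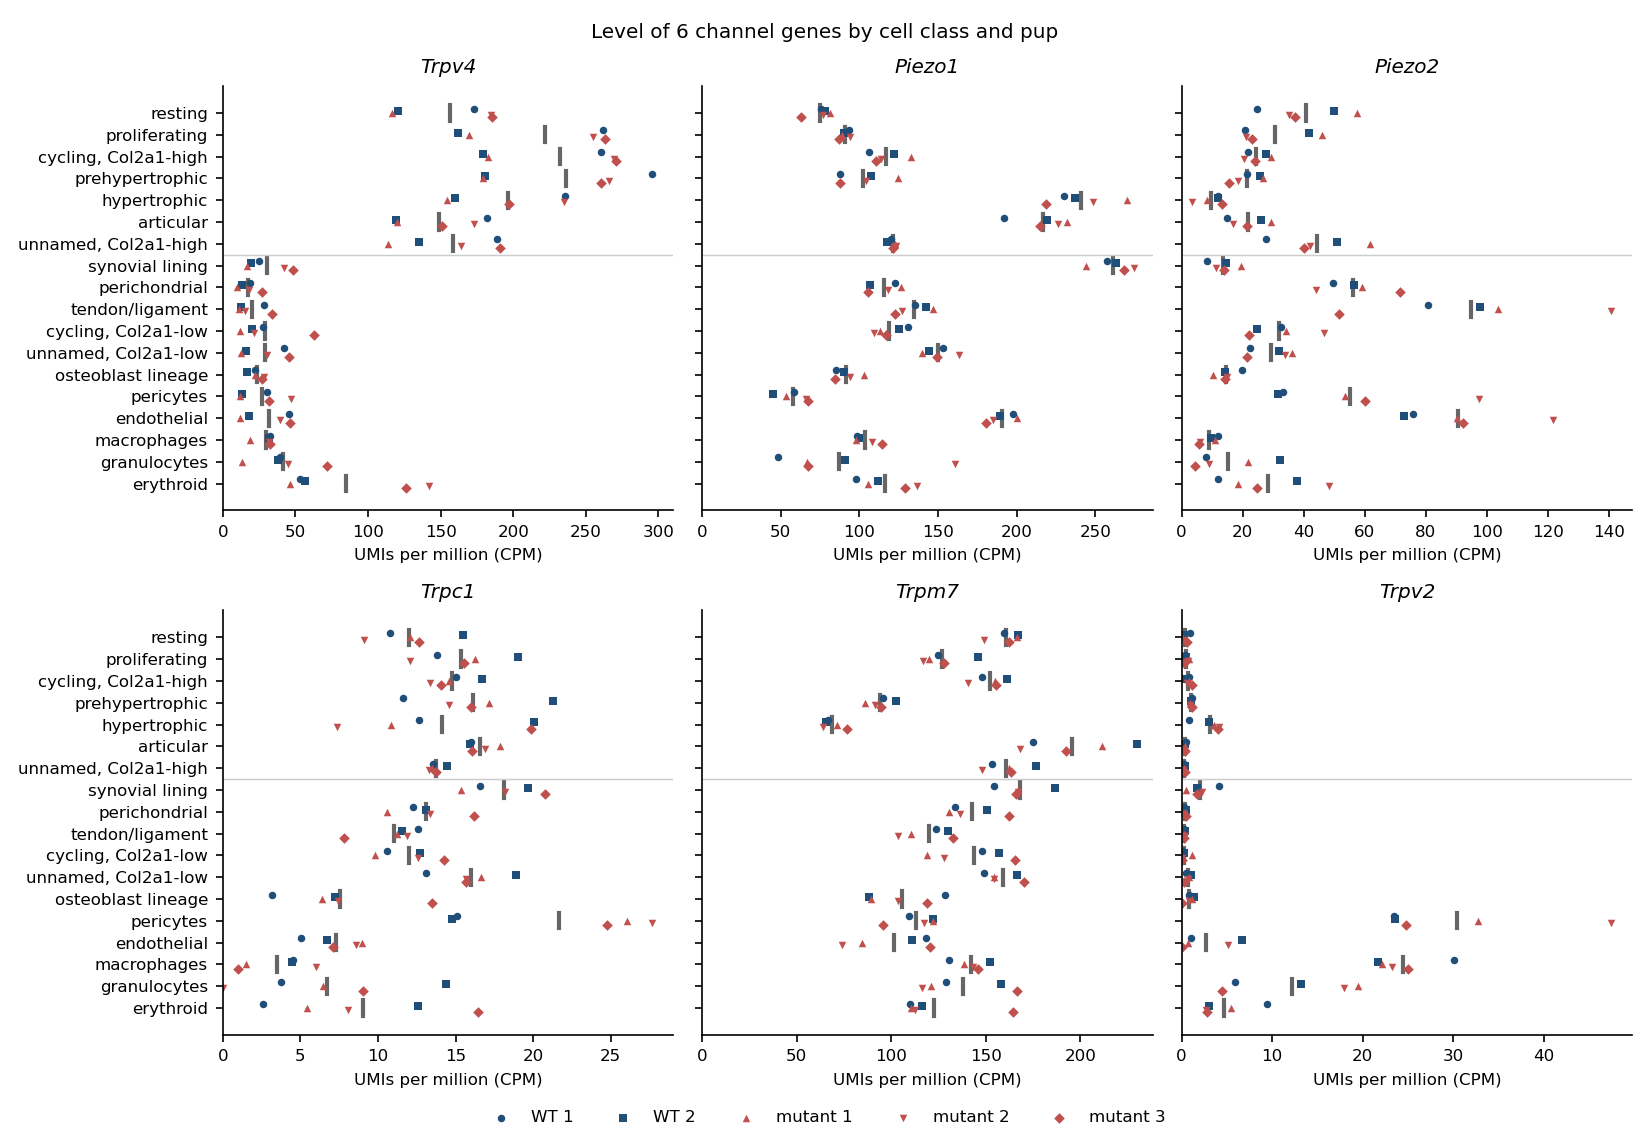
Level of each of the 6 channel genes in CPM (horizontal axes) in 18 cell classes (rows), with 1 point per pup and a grey tick at the mean of the 5 pups. The line separates the 6 chondrocyte-like classes and the unnamed cells rich in Col2a1 from the other 11. All Trpv4 points above the line lie between 113 and 296 CPM, while Piezo1 and Trpm7 are spread over all classes and Trpv2 is high in macrophage- and pericyte-like cells.

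In the order of the 18 classes, no 2 neighbours had Trpv4 ranges that stayed apart, and 4 of the 17 neighbouring pairs had the same order in every pup, among them the step from articular-like chondrocytes to erythroid-like cells. Within single clusters the highest mean was 298 ± 61.5 CPM, in 1260 cycling cells led by Ccnb1, Pbk and H2ax.

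In the gates, Trpv4 was at 230.3 and 156 CPM in the WT pups and 152, 223 and 222 CPM in the mutant pups among cells gated on Col2a1. Cells gated on Postn, a gene of perichondrium and periosteum, had 11.5 and 8.35 CPM in the WT pups and 9.11, 13.8 and 16.4 CPM in the mutant pups. The ranges were far apart and Trpv4 was lower in the Postn gate in every pup (log2 fold change -4.15, SE 0.13, adjusted p = 6.35e-29, edgeR). In that comparison 67.5% of the tested genes passed, 33.5% higher and 34% lower. The cells gated on Csf1r, the receptor that macrophages need for survival, were also low, at 16.1 and 20.7 CPM in the WT pups and 14.2, 12.3 and 20.4 CPM in the mutant pups (log2 fold change -3.68, SE 0.15, adjusted p = 6.31e-25, edgeR), where 74.3% of the genes passed, 34.2% higher and 40.2% lower. Among the cartilage gates, cells gated on Prg4 were lower than those gated on Col2a1, at 144 ± 30.0 CPM against 197 ± 39.3 CPM, in 5 of 5 pups, although the ranges overlapped (log2 fold change -0.52, SE 0.10, adjusted p = 3.62e-05, edgeR). Of all genes 57.2% passed there, 27.1% higher and 30% lower. The Ihh gate, with 228 ± 52.6 CPM, did not pass against Col2a1 (log2 fold change 0.21, SE 0.11, adjusted p = 0.0913), and 51.4% of the genes did, 23.1% higher and 28.4% lower. Its 95% interval ran from -0.00179 to 0.43. The Ihh gate held 402 cells, 339 of them prehypertrophic-like. The 32909 cells of the Col2a1 gate included 1132 prehypertrophic-like, 7661 resting-like, 5469 proliferating-like and 2883 cycling cells rich in Col2a1. The comparison is thus not one of prehypertrophic-like against other chondrocyte-like cells. The Col10a1 gate against the Ihh gate gave -0.05 (95% interval -0.27 to 0.17), with 16.2% of genes past the threshold, 10.5% higher and 5.69% lower.

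Cells gated on Ibsp, bone sialoprotein, had more Trpv4 than cells gated on Postn, at 31.9 and 27.3 CPM in the WT pups and 32.6, 48.5 and 35.4 CPM in the mutant pups. Each pup was above its own Postn gate (log2 fold change 1.94, SE 0.19, adjusted p = 8.13e-12, edgeR), in a comparison that 44.3% of the genes passed, 20.5% higher and 23.8% lower. The Ibsp gate held 300 cells, 15 of them in WT pup 1. Cells gated on Tnmd, tenomodulin of tendon, had 21.9 and 8.30 CPM in the WT pups and 8.78, 11.9 and 17.2 CPM in the mutant pups against 8.35 to 16.4 CPM in the Postn gate. The ranges overlapped and only 2 of 5 pups were higher in CPM, while the fit, which scales libraries by TMM, gave a call (log2 fold change 0.42, SE 0.13, adjusted p = 0.0143, edgeR) in a comparison where 25.4% of the genes passed, 13% higher and 12.4% lower. This call was lost without WT pup 1 (log2 fold change 0.22, adjusted p = 0.241) and without the block (adjusted p = 0.172). Endothelial cells gated on Pecam1 had 16.0 ± 5.76 CPM and did not pass against the Csf1r gate (log2 fold change -0.29, SE 0.25, adjusted p = 0.365). In this comparison 49.3% of the genes passed, 24.8% higher and 24.6% lower.

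Col2a1 itself was counted in cells that should not make it, at 10036 CPM in macrophage-like cells against 116357 CPM in resting-like chondrocytes, and Trpv4 was therefore set against it. The chondrocyte-like classes ran from 1.33 ± 0.224 Trpv4 UMIs per 1000 Col2a1 UMIs in resting-like to 3.31 ± 0.393 in cycling cells. Of the 11 classes outside cartilage, which had 5258 to 16820 CPM of Col2a1 apart from the erythroid-like cells, 6 had a mean within that span, the macrophage-like (3.03 ± 0.480), tendon- or ligament-like (2.80 ± 0.725), perichondrium-like (2.62 ± 0.396), pericyte-like (2.54 ± 0.743), granulocyte-like (2.41 ± 0.894) and erythroid-like cells (2.16 ± 0.629). The other 5 lay above it, at 3.48 ± 0.348 in the unnamed cells poor in Col2a1, 3.54 ± 0.758 in cycling cells poor in Col2a1, 3.98 ± 1.17 in endothelium-like, 4.41 ± 1.33 in synovial-lining-like and 5.32 ± 2.96 in osteoblast-lineage-like cells. In the gates poor in Col2a1, which leave out cells over the Col2a1 limit and so lower the denominator by construction, the ratio was 5.62 ± 1.89 for Tnmd, 8.11 ± 1.38 for Postn, 11.3 ± 2.63 for Csf1r, 11.3 ± 3.10 for Pecam1 and 23.2 ± 12.5 for Ibsp, at 1459.9 to 2366 CPM of Col2a1. The part of free cartilage RNA in the Trpv4 counts of these cells was not tested.

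**Figure D2:**
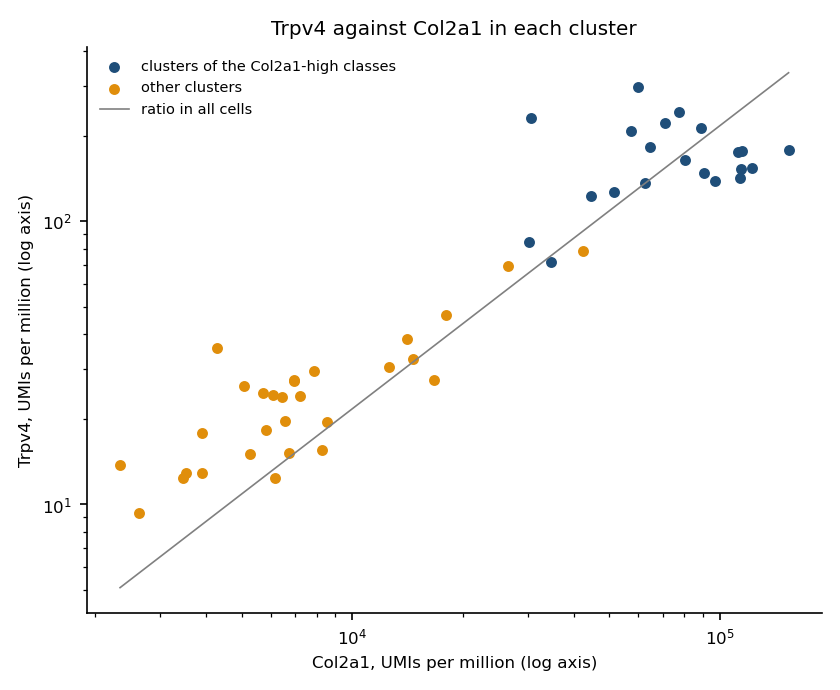
Trpv4 against Col2a1 in 50 clusters of cells, both in CPM on log axes, with 1 point per cluster. The line marks the ratio in all cells, 2.18 Trpv4 UMIs per 1000 Col2a1 UMIs. Trpv4 is mostly higher in clusters rich in Col2a1 than in clusters poor in it, and the clusters scatter to both sides of the line. Among the rich clusters it does not rise steadily with Col2a1, at 298 CPM beside 59716 CPM of Col2a1 and 178 CPM beside 153850 CPM.

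Among the genes whose level pattern over the 18 classes was most like that of Trpv4 were Ncmap (Pearson r = 0.988 of log2(CPM + 5), among 9791 genes), Col9a3 (0.982), a chain of type IX collagen, Cnmd (0.980), chondromodulin, and Papss2 (0.979), which makes the sulfate donor for proteoglycans. Col2a1 came twelfth in that order (r = 0.970). The 18 points share their 5 libraries, so these values are a description.

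Piezo1 was found in every class, with its highest levels at the joint surface and in hypertrophic cartilage. The synovial-lining- or superficial-fibroblast-like cells had 261 ± 11.8 CPM, hypertrophic-like chondrocytes 241 ± 19.6 CPM, articular-like chondrocytes 217 ± 15.5 CPM and endothelium-like cells 191 ± 8.12 CPM. The lowest were resting-like chondrocytes at 74.9 ± 6.95 CPM and pericyte-like cells at 57.8 ± 9.27 CPM. Hypertrophic-like chondrocytes had 229.9 and 237 CPM in the WT pups and 269.9, 248 and 218 CPM in the mutant pups. The prehypertrophic-like cells of the same pups had 87.4 and 107 CPM in the WT pups and 125, 104 and 87.6 CPM in the mutant pups. The ranges did not overlap (log2 ratio 1.24 ± 0.12, SD, n = 5). The articular-like chondrocytes had 192 and 219 CPM in the WT pups and 232, 226 and 214 CPM in the mutant pups, all above the resting-like cells at 63.0 to 81.1 CPM (log2 ratio 1.52 ± 0.15, and 0.96 at a Leiden resolution of 0.8, 1.12 at 2.5 and 1.15 with a mitochondrial limit of 20%). Only the step from endothelium-like cells to the unnamed cells poor in Col2a1 was a neighbouring pair with ranges apart.

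Cells gated on Col10a1, the collagen of hypertrophic cartilage, had 167 and 181 CPM in the WT pups and 209.6, 178 and 152 CPM in the mutant pups, and cells gated on Ihh, the hedgehog ligand of prehypertrophic cells, had 96.7 and 104 CPM in the WT pups and 103, 98.5 and 69.7 CPM in the mutant pups. Of the 765 cells of the Col10a1 gate, 411 were prehypertrophic-like and 268 hypertrophic-like, and its Ihh level (437 CPM) was no lower than that of the Ihh gate (416 CPM). All 5 pups were higher in the Col10a1 gate (log2 fold change 0.96, SE 0.09, adjusted p = 2.07e-10, edgeR), a direction that 10.5% of all genes took past the threshold. The Prg4 gate had 177 and 204 CPM in the WT pups and 214, 218 and 193 CPM in the mutant pups, against 99.3 to 104 CPM in the Col2a1 gate (log2 fold change 0.92, SE 0.08, adjusted p = 8.65e-13, edgeR). The Pecam1 gate, at 173 and 189.9 CPM in the WT pups and 204, 185 and 178 CPM in the mutant pups, was above the Csf1r gate at 99.2 to 129.9 CPM (log2 fold change 0.81, SE 0.10, adjusted p = 9.75e-09, edgeR). The Tnmd gate was above the Postn gate by less, 132 ± 8.23 CPM against 114 ± 9.51 CPM (log2 fold change 0.46, SE 0.08, adjusted p = 4.03e-05, edgeR). Between the Csf1r gate (103 and 99.2 CPM in the WT pups and 106, 103 and 129.9 CPM in the mutant pups) and the Col2a1 gate (99.3 to 104 CPM) the direction depended on the scaling. In CPM the mean was higher in the Csf1r gate, 108 ± 12.2 CPM against 101 ± 2.10 CPM, and 3 of 5 pups were higher, while the fit scaled by TMM gave a lower value (log2 fold change -0.24, SE 0.10, adjusted p = 0.0208, edgeR). That call was lost without the block (adjusted p = 0.0507), with RLE scaling (0.0748), with doubled gate limits and without WT pup 1 or mutant pups 1 or 2. No call was made for Ihh over Col2a1 (-0.08, 95% interval -0.43 to 0.27) or for Ibsp over Postn (0.09, -0.12 to 0.30). With no low-count filter the first of these passed (log2 fold change -0.26, adjusted p = 0.0229).

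Among single clusters with 20 cells in every pup, Piezo1 was highest in articular-like cells led by Cilp, Cyfip2 and Tesc (299.8 ± 34.9 CPM, 1666 cells) and reached 259 ± 42.0 CPM in 538 tendon- or ligament-like cells led by Chodl and Cilp. The patterns most like that of Piezo1 were those of Disp1 (r = 0.837), which releases hedgehog ligands, Epb41l4a (0.774), Rab11fip5 (0.773), Chmp2b (0.756) and Bmp6 (0.755), a bone morphogenetic protein.

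**Figure D3:**
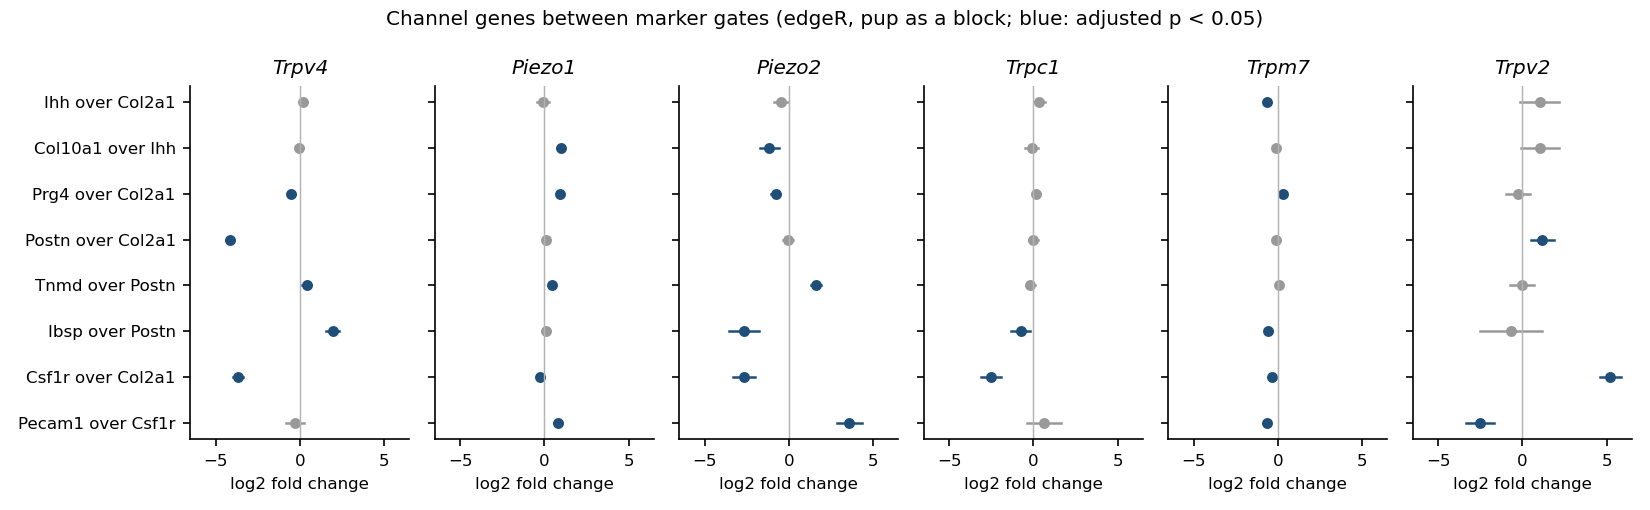
Log2 fold change of the 6 channel genes in 8 comparisons of marker gates, with 95% intervals, from edgeR with the pup as a block (n = 5 pups). Blue points passed an adjusted p of 0.05, among them Trpv4 in Postn over Col2a1 at -4.15 and Trpv2 in Csf1r over Col2a1 at 5.21.

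Piezo2 had its highest levels in tendon- or ligament-like cells (94.9 ± 32.6 CPM) and endothelium-like cells (90.6 ± 19.4 CPM). The perichondrium-like cells had 56.1 ± 10.4 CPM and the pericyte-like cells 55.1 ± 26.7 CPM. Among chondrocyte-like cells the level went down from resting-like (40.9 ± 12.9 CPM) through proliferating-like (30.5 ± 12.3 CPM) and prehypertrophic-like (21.5 ± 4.79 CPM) to hypertrophic-like cells (9.68 ± 4.01 CPM), and articular-like cells had 21.7 ± 5.99 CPM. In resting-like cells the pups had 24.8 and 49.9 CPM in the WT pups and 57.6, 35.1 and 37.0 CPM in the mutant pups, and in hypertrophic-like cells they had 11.8 and 11.8 CPM in the WT pups and 8.31, 3.28 and 13.2 CPM in the mutant pups, on 78 UMIs. The ranges did not overlap. The step from resting-like to proliferating-like changed sign with finer clusters (0.07 at a Leiden resolution of 2.5) and with a mitochondrial limit of 20% (0.22), and the drop from prehypertrophic- to hypertrophic-like cells was log2 ratio -1.17 ± 0.75 in 5 of 5 pups. The macrophage-like cells were lowest, at 8.90 ± 2.86 CPM. In the order of classes only the step from endothelium-like to perichondrium-like cells had ranges apart.

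The cells gated on Tnmd had 76.2 and 91.2 CPM in the WT pups and 87.9, 117 and 68.8 CPM in the mutant pups, and those gated on Postn had 27.9 and 46.8 CPM in the WT pups and 42.6, 26.2 and 33.1 CPM in the mutant pups. The groups did not overlap, with Tnmd above Postn in 5 of 5 pups (log2 fold change 1.58, SE 0.15, adjusted p = 1.10e-10, edgeR). Of the 12460 cells of the Tnmd gate, 7201 were tendon- or ligament-like and 2339 perichondrium-like. Of the 6030 cells of the Postn gate, 2547 were perichondrium-like. Between the tendon- or ligament-like and perichondrium-like classes the Piezo2 log2 ratio was 0.69 ± 0.75 (SD, n = 5), with 4 of 5 pups higher. The Pecam1 gate had 68.0 and 64.5 CPM in the WT pups and 91.5, 127 and 111 CPM in the mutant pups, against 1.75 to 10.3 CPM in the Csf1r gate (log2 fold change 3.59, SE 0.36, adjusted p = 7.53e-11, edgeR). The Csf1r gate was itself below the Col2a1 gate, which had 23.3 and 43.3 CPM in the WT pups and 51.1, 28.9 and 31.8 CPM in the mutant pups (log2 fold change -2.65, SE 0.33, adjusted p = 4.66e-09, edgeR).

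Piezo2 was also lower in the Ibsp gate than in the Postn gate. It had 24 UMIs there in all, none of them in WT pup 1 and mutant pup 3, where a count of 0 allows up to 11.9 and 11.8 CPM (3 counts, counting error only). The highest pup was at 9.70 CPM (log2 fold change -2.66, SE 0.44, adjusted p = 4.39e-06, edgeR). Among the cartilage gates, Prg4 was below Col2a1 (21.5 ± 5.64 CPM against 35.7 ± 11.3 CPM, log2 fold change -0.79, SE 0.14, adjusted p = 8.62e-06, edgeR). Col10a1 was below Ihh, at 14 and 11 CPM in the WT pups and 11.9, 9.60 and 10.4 CPM in the mutant pups against 21.3 to 29.4 CPM (log2 fold change -1.17, SE 0.27, adjusted p = 0.00252, edgeR), a direction shared by 5.69% of all genes. With gate limits doubled the adjusted p was 0.0953. The Ihh gate itself, at 25.4 ± 3.69 CPM, did not pass against Col2a1 (log2 fold change -0.45, SE 0.20, adjusted p = 0.0601), but did with no low-count filter (adjusted p = 0.0162), with doubled gate limits (0.0264), and without WT pup 1 (0.0470) or mutant pup 2 (0.0214).

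Among single clusters with 20 cells in every pup, Piezo2 was highest in 4158 tendon- or ligament-like cells led by Kera, a proteoglycan of cornea and tendon, and Tnmd, at 137 ± 35.5 CPM. The patterns nearest to that of Piezo2 were those of Fam13c (r = 0.790), Tmem47 (0.785), Zfp462 (0.764), Armcx6 (0.762) and Tshz2 (0.758), a lower likeness than that of the nearest genes to Trpv4.

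Trpm7 varied least between classes, from 68.8 ± 5.27 CPM in hypertrophic-like to 195 ± 25.7 CPM in articular-like chondrocytes, with 161 ± 7.43 CPM in resting-like, 127 ± 11.2 CPM in proliferating-like and 93.9 ± 6.19 CPM in prehypertrophic-like chondrocytes. Hypertrophic-like cells had 66.5 and 65.4 CPM in the WT pups and 71.5, 63.9 and 76.8 CPM in the mutant pups, and no other class reached so low in its mean. Their range stayed apart from that of their neighbour in the order, the prehypertrophic-like cells at 85.8 to 103 CPM. In the gates the Ihh cells had 79.9 and 96.8 CPM in the WT pups and 83.6, 90.1 and 111 CPM in the mutant pups. They were below the Col2a1 cells at 138 to 157 CPM in every pup (log2 fold change -0.67, SE 0.08, adjusted p = 3.25e-09, edgeR). This was the only call among the 6 channels in that comparison, which 51.4% of all genes passed, 23.1% higher and 28.4% lower. The Prg4 gate was above Col2a1 (189 ± 20.7 CPM against 146 ± 7.75 CPM, log2 fold change 0.30, SE 0.07, adjusted p = 5.01e-04, edgeR). The remaining calls were for gates of non-cartilage cells lower than the gate they were set against: Ibsp against Postn (-0.57, adjusted p = 3.23e-06), Pecam1 against Csf1r (-0.67, 1.25e-07) and Csf1r against Col2a1 (-0.36, 1.42e-04), all by edgeR. In the last of these the CPM values overlapped, 141 ± 18.9 CPM against 146 ± 7.75 CPM, and 2 of 5 pups were higher in the Csf1r gate. Postn over Col2a1 passed only with doubled gate limits (log2 fold change -0.19, adjusted p = 0.0228).

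Trpc1 had few counts, 10214 UMIs over all cells. Its highest mean was in pericyte-like cells (21.7 ± 6.22 CPM) and its lowest in macrophage-like cells (3.50 ± 2.16 CPM). The pericyte-like cells were above the next class, the synovial-lining-like cells at 18.1 CPM, in 3 of 5 pups, all of them labelled mutant. The chondrocyte-like classes lay between 12.0 and 16.5 CPM. The Csf1r gate had 1.15 and 4.55 CPM in the WT pups and 1.64, 5.26 and 1.86 CPM in the mutant pups on 19 UMIs, all below the Col2a1 gate at 12.7 to 16.9 CPM (log2 fold change -2.54, SE 0.29, adjusted p = 1.95e-10, edgeR). The Ibsp gate was below the Postn gate (6.92 ± 3.36 CPM against 14.9 ± 2.46 CPM, log2 fold change -0.75, SE 0.28, adjusted p = 0.0296, edgeR), but not without WT pup 2 (adjusted p = 0.0894) or mutant pup 2 (0.120). The Ihh gate passed against Col2a1 only without WT pup 1 (log2 fold change 0.46, adjusted p = 0.0172).

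Trpv2 was scarcely detected in cartilage. The chondrocyte-like classes together had 0.642 ± 0.0673 CPM, on 214 UMIs, while pericyte-like cells had 30.4 ± 10.3 CPM and macrophage-like cells 24.4 ± 3.39 CPM. The granulocyte-like cells followed at 12.2 ± 6.80 CPM. In the Csf1r gate the pups had 25.3 and 20.3 CPM in the WT pups and 24.6, 24.5 and 31.5 CPM in the mutant pups, and in the Col2a1 gate they had 0.654 and 0.571 CPM in the WT pups and 0.50, 0.396 and 0.456 CPM in the mutant pups. No pup of the Col2a1 gate came near the Csf1r gate (log2 fold change 5.21, SE 0.30, adjusted p = 9.08e-20, edgeR). The Pecam1 gate was lower than the Csf1r gate, at 4.27 ± 4.02 CPM (log2 fold change -2.50, SE 0.41, adjusted p = 1.47e-06, edgeR). It held 19 Trpv2 UMIs, none of them in mutant pup 3, where a count of 0 allows up to 13.3 CPM. The Postn gate was above Col2a1 in 4 of 5 pups, at 1.24 ± 0.632 CPM (log2 fold change 1.19, SE 0.34, adjusted p = 0.00247, edgeR). Its Trpv2 level rests on 52 UMIs, 1 of them in mutant pup 3. Hypertrophic-like chondrocytes had 3.12 ± 1.33 CPM on 26 UMIs, the highest of the chondrocyte-like classes, and the Col10a1 gate did not pass against Ihh (log2 fold change 1.05, SE 0.56, adjusted p = 0.216).

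The genes with the pattern most like Trpm7 were Ensa (r = 0.940), Dennd10 (0.893), Zfp451 (0.883), Mga (0.878) and Cstf2t (0.875). For Trpc1 they were Maged2 (r = 0.953), Ndn (0.905), Rnf217 (0.896), Fxyd1 (0.893) and Arfip1 (0.883). For Trpv2 they were Nfkbie (r = 0.914), an inhibitor of NF-kappa-B, Gla (0.909), a lysosomal galactosidase, Asb2 (0.908), Adap2 (0.907) and Tmem38b (0.906).

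The share of cells with a UMI depends on depth, and depth differed between classes, from a median of 5542 UMIs in articular-like to 27682 in hypertrophic-like chondrocytes. Every cell was therefore thinned to 3000 UMIs, which left 29662 of the 30234 chondrocyte-like cells. At that depth Trpv4 had a UMI in 38.9% ± 5.97 of the chondrocyte-like cells (SD, n = 5), against 70.0% before thinning. In prehypertrophic-like cells the share was 48.6% and in resting-like cells 36.0%, against 5.94% in macrophage-like cells (median depth 7588 UMIs) and 3.52% in perichondrium-like cells. Piezo1 had a UMI in 30.7% ± 1.73 of chondrocyte-like cells, from 18.5% in resting-like to 45.8% in articular-like and 49.4% in hypertrophic-like cells, and in 50.8% of the synovial-lining-like cells. The share for Piezo2 was 7.46% ± 1.66 in chondrocyte-like cells, 21.4% in tendon- or ligament-like cells, 18.7% in endothelium-like cells and 1.82% in macrophage-like cells. Trpm7 had 36.3% ± 2.17, from 16.6% in hypertrophic-like to 41.4% in articular-like cells. Trpc1 had 4.34% ± 0.50. Trpv2 had 0.135% ± 0.0657 in chondrocyte-like cells, against 7.59% in macrophage-like and 7.15% in pericyte-like cells.

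Other channels were read in 4 lists of 44 genes, chosen by function. All had a row in the files, and 30 were tested in the gates. Of 11 other mechanically gated channels, 6 reached 20 CPM in some class. Pkd2, a polycystin of the primary cilium, was at 349 ± 27.2 CPM in synovial-lining-like and 243 ± 13.2 CPM in tendon- or ligament-like cells. Its partner Pkd1 reached 97.1 ± 11.2 CPM in articular-like chondrocytes, Tmem63a, an osmotically gated channel, 71.0 ± 10.1 CPM in synovial-lining-like cells, and Lrrc8a, the core of the volume-regulated anion channel, 63.9 ± 10.8 CPM in endothelium-like cells. All 7 tested members of this list changed in the Prg4 gate against Col2a1, where 57.2% of all genes did. Kcnk2, Lrrc8a, Pkd1, Pkd2, Tmem63a and Tmem87a were higher and Tmem63b lower, with log2 fold changes of 1.16 for Pkd1 and 1.09 for Pkd2 (edgeR, adjusted p = 1.18e-14 and 8.34e-15). The list's median log2 fold change was 0.42 where that of all genes was -0.02. In the Tnmd gate against Postn, Kcnk2 (1.19), Pkd1, Pkd2 and Tmem63a were higher and none was lower, where 13% of all genes were higher and 12.4% lower.

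Of 18 other TRP channels, 7 reached 20 CPM and 5 stayed under 1 CPM in every class. Mcoln2 and Mcoln3, channels of lysosomes and endosomes, were at 40.2 ± 3.18 CPM and 37.5 ± 5.56 CPM in prehypertrophic-like chondrocytes and were higher in the Ihh gate than in Col2a1 (log2 fold changes 1.08 and 2.53, edgeR, adjusted p = 7.61e-08 and 2.36e-15). Both fell again in Col10a1 against Ihh (-0.64 and -0.67). Trpc6 stood out in pericyte-like cells, at 36.6 ± 9.41 CPM. Trpm2, which opens in oxidative stress, had its highest level in granulocyte-like cells (30.7 ± 14.9 CPM), and Trpm3 in perichondrium-like cells (27.4 ± 6.53 CPM).

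Among 10 partners and regulators of these channels, 8 reached 20 CPM. Cav1, caveolin of membrane pits, was at 2071 ± 232 CPM in endothelium-like cells. Mdfi and Mdfic, which bind PIEZO channels, had opposite places, Mdfi highest in hypertrophic-like chondrocytes (156 ± 14.5 CPM) and Mdfic in macrophage-like cells (89.4 ± 16.8 CPM). In the Csf1r gate against Col2a1, Mdfi was lower (-4.30) and Mdfic higher (2.05), with adjusted p = 3.52e-19 and 3.83e-23 by edgeR. Pacsin3, which binds the N-terminal tail of TRPV4, was at 27.9 ± 3.94 CPM in resting-like chondrocytes and lower in the Postn gate than in Col2a1 (-1.09, adjusted p = 1.16e-12, edgeR). In that comparison all 9 tested members of the list changed, 2 higher and 7 lower, where 33.5% of all genes were higher and 34% lower. The 5 genes of store-operated calcium entry all reached 20 CPM. Stim1, the calcium sensor of the endoplasmic reticulum, was at 105 ± 21.3 CPM and Orai1, the channel it opens, at 70.7 ± 13.2 CPM in hypertrophic-like chondrocytes. Both were higher in Col10a1 than in Ihh (0.64 and 0.86, adjusted p = 6.17e-05 and 1.05e-05, edgeR), as Piezo1 was, while Orai3 was called lower there. Of the 30 tested genes, 18 changed in Ihh over Col2a1 (7 higher, 11 lower), where 51.4% of all genes did, and 8 in Col10a1 over Ihh (4 and 4), where 16.2% did. In Prg4 over Col2a1 there were 24 (15 and 9) beside 57.2% of all genes, and in Postn over Col2a1 25 (9 and 16) beside 67.5%. In Tnmd over Postn there were 5 (4 and 1) beside 25.4%, in Ibsp over Postn 18 (7 and 11) beside 44.3%, in Csf1r over Col2a1 23 (9 and 14) beside 74.3% and in Pecam1 over Csf1r 17 (8 and 9) beside 49.3%. Nothing particular to the lists is read from these counts.

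Among pups, Trpv4 and Piezo2 varied more than most genes of their level. In the chondrocyte-like classes together, Trpv4 stood at 229 and 153 CPM in the WT pups and 153, 228 and 224 CPM in the mutant pups. WT pup 2 and mutant pup 1 were low and the others high, so the spread cut across the labels. Piezo2 stood at 20.5 and 34.7 CPM in the WT pups and 36.2, 22.5 and 25.3 CPM in the mutant pups, and the 2 pups that were lowest for Trpv4 were the highest. The coefficient of variation over pups was 20.5% for Trpv4, above that of 96.0% of 1145 genes of like level (median 7.74%), and 25.7% for Piezo2, above 97.5% of 4117 genes. For Piezo1 it was 8.79%, for Trpc1 13.3% and for Trpm7 5.64%. WT pup 2 was among the 2 lowest pups for Trpv4 in 16 of the 18 classes and mutant pup 1 in 17. These 2 pups do not share a label, and by Ddx3y and Xist they do not share a sex.

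**Figure D4:**
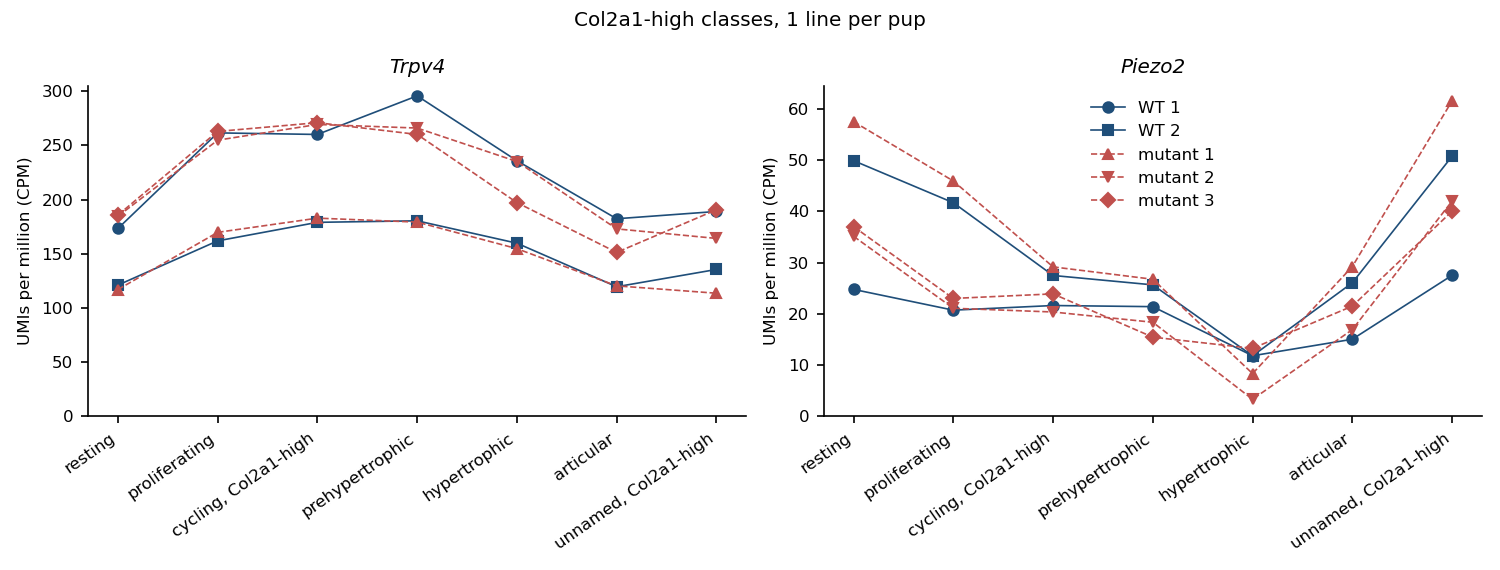
Trpv4 and Piezo2 in CPM (vertical axes) in the 6 chondrocyte-like classes and the unnamed cells rich in Col2a1, with 1 line per pup. The lines of WT pup 2 and mutant pup 1 lie below those of the other pups for Trpv4 in every class shown.

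The comparison of mutant with WT pups asks whether the levels of these channels moved with the knock-in. None of the 6 passed an adjusted p of 0.05 in edgeR in all cells, in all chondrocyte-like cells or in any of the 18 classes. Of 93 tests of a channel in a class (the rest did not pass the filter on low counts), 4 had an unadjusted p under 0.05, the smallest adjusted p was 0.309, and DESeq2 called none. The share of all genes called was 0% in all cells and in all chondrocyte-like cells, 0.00718% in resting-like chondrocytes, 0.0214% in cycling cells rich in Col2a1, 0.0333% in endothelium-like cells, 0.0679% in macrophage-like cells and 0% in the other 14 classes. In all chondrocyte-like cells 1055 of 18106 genes had an unadjusted p under 0.05, and DESeq2 called 24.

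For Trpv4 in all chondrocyte-like cells, whose pup levels are given above, both groups held a low pup and at least 1 high pup and their ranges overlapped (log2 fold change 0.14, 95% interval -0.49 to 0.76, adjusted p = 0.936, edgeR). Without WT pup 2 the value turned to -0.16. In prehypertrophic-like chondrocytes the difference for Trpv4 was 0.02 (95% interval -0.67 to 0.70), and in resting-like chondrocytes 0.22 (-0.45 to 0.89). The resting-like class was made up unequally by label, since 1 of its 3 clusters, led by Arc, Plet1 and Epcam with Trpv4 at 138 CPM, held 401 and 336 cells in the WT pups and 138, 9 and 44 in the mutant pups, and the part of this in the difference was not tested. Piezo1 had the tightest interval after Trpm7 (log2 fold change 0.15, 95% interval -0.08 to 0.38, adjusted p = 0.827). Trpm7 gave -0.01 (-0.21 to 0.19), Piezo2 0.08 (-0.47 to 0.64), Trpc1 -0.06 (-0.34 to 0.22) and Trpv2 0.08 (-0.52 to 0.67). The thinned shares of chondrocyte-like cells with a Trpv4 UMI were 38.4% ± 8.54 (SD, n = 2) in WT and 39.3% ± 5.87 (SD, n = 3) in mutant pups (2-sided exact permutation p = 1, adjusted p = 1 over the 6 channels). The other 5 channels gave exact p of 0.2 to 0.8 and adjusted p of 0.96, and the smallest p this design allows is 0.1.

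**Figure D5:**
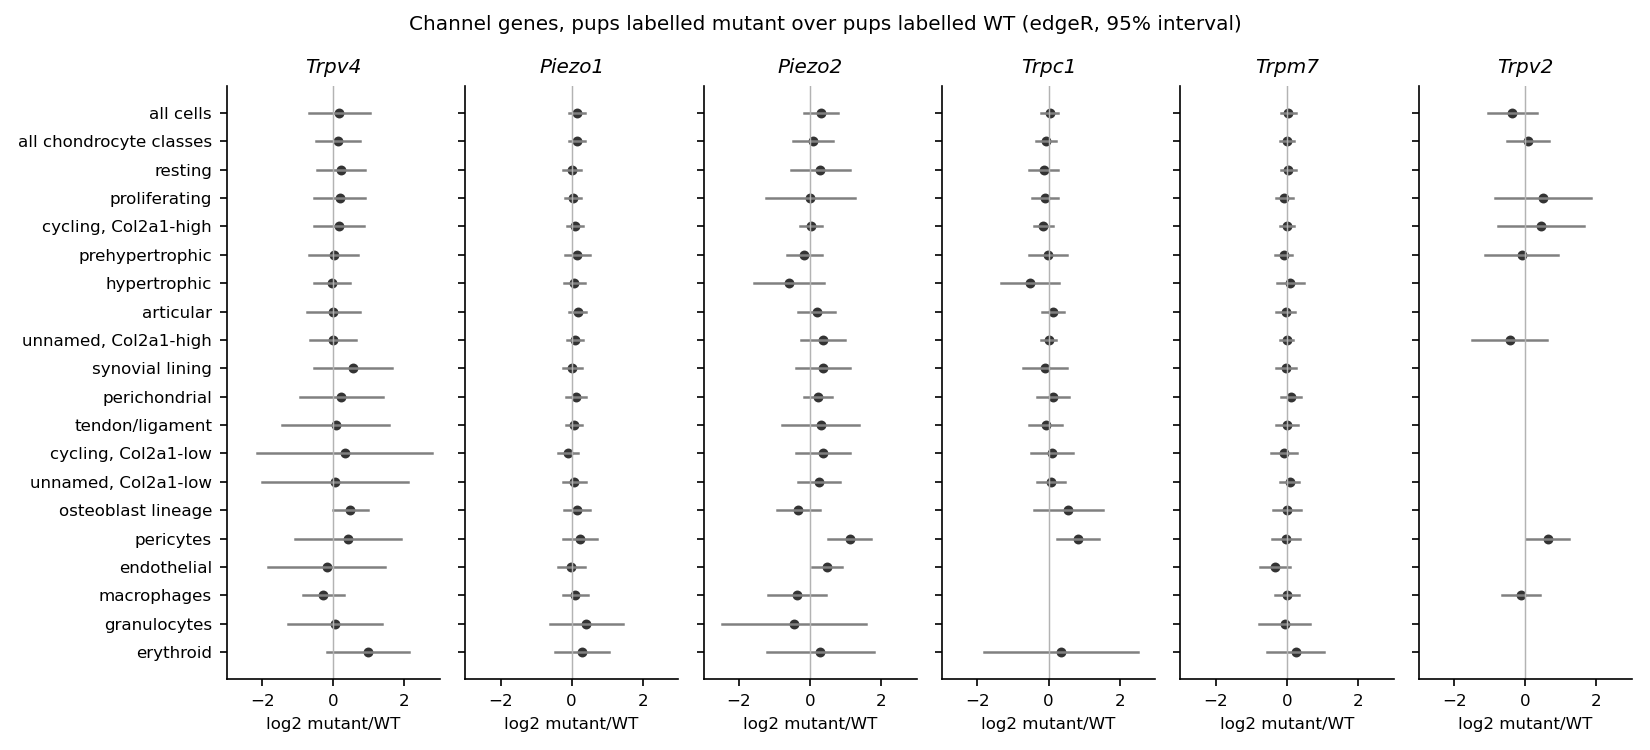
Log2 fold change of mutant over WT for the channel genes by cell class, with 95% intervals from edgeR (2 WT and 3 mutant pups). No point passed an adjusted p of 0.05. Piezo2 in pericyte-like cells lies furthest to the right at 1.11.

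Of the 4 tests with an unadjusted p under 0.05, 3 were in pericyte-like cells. This class of 897 cells was led by Myh11, Tagln, Rgs5 and Acta2. No marker list for vascular smooth muscle was used, so such cells are not set apart from it. Of all genes tested in pericyte-like cells, 699 of 9639 had an unadjusted p under 0.05, and 436 of 8998 in endothelium-like cells. In the pericyte-like cells Piezo2 was at 33.2 and 31.5 CPM in the WT pups and 53.5, 97.3 and 60.1 CPM in the mutant pups (log2 fold change 1.11, 95% interval 0.51 to 1.72, adjusted p = 0.309, edgeR). Trpc1 was at 15.1 and 14.8 CPM in the WT pups and 26.0, 27.6 and 24.8 CPM in the mutant pups (log2 fold change 0.82, 95% interval 0.23 to 1.41, adjusted p = 0.496, edgeR). Trpv2 was at 23.4 and 23.5 CPM in the WT pups and 32.8, 47.4 and 24.8 CPM in the mutant pups. Mutant pup 3 was close to the WT pups (log2 fold change 0.62, 95% interval 0.02 to 1.23, adjusted p = 0.666, edgeR). None of the 3 passed after adjustment, and none of the 9639 genes tested in these cells did (0%). With no low-count filter the adjusted p of Piezo2 was 0.00306, and over all alternatives it ran from 0.00306 to 1.00, and the log2 fold change was 0.76 without mutant pup 2. The share of all genes called without that filter is not given here. The class held 39 to 353 cells per pup, with the fewest in mutant pup 3. The fourth was Piezo2 in endothelium-like cells, at 75.9 and 72.9 CPM in the WT pups and 90.4, 122 and 92.1 CPM in the mutant pups (log2 fold change 0.47, 95% interval 0.04 to 0.90, adjusted p = 0.972, edgeR). Of the 44 other listed channel genes, none was called in any class by edgeR.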

How the data were processed

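Cells from the knee growth plates of 5 pups, digested with collagenase, were made into 1 BD Rhapsody library each. The files that the authors deposited hold whole-number UMI counts of genes in each cell, on the mm10 build per the labels. The union of the genes in the files of the 5 pups was 29818. The aligner's settings for introns and strand are not given in the sources used here, and allele and exon cannot be read from these counts.

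Cells with 200 to 6000 genes and at most 10% mitochondrial UMIs were kept. Clusters came from Pearson residuals (theta 100) of 3000 variable genes, 50 principal components, 20 neighbours and Leiden clustering at resolution 1.5 (scanpy 1.11.5, leidenalg 0.10.2), with the channel genes left out. A cluster took the name of the marker list with the highest mean score, or one within 0.5 of it, for which at least 3 markers and no fewer than were missing were raised and detected in at least 10% of its cells. A class tied to a gate gene, such as Prg4 or Tnmd, also needed that gene to be higher than in the other clusters. These limits were set after the data were seen. Gates took cells over a CPM limit, and at least 3 UMIs, of a marker. A cell over the limits of Col2a1 and of Ihh, Col10a1 or Prg4 went to the latter, one over Ihh and Col10a1 to Col10a1, one over Postn and Tnmd to Tnmd and one over Postn and Ibsp to Ibsp, and other cells over several limits were left out. The limits were 200 CPM for Csf1r, Pecam1, Ihh and Tnmd, 1000 for Ibsp and Col10a1, 2000 for Postn, 5000 for Prg4 and 30000 for Col2a1. Doublets were kept in the main values and left out in an alternative by a Scrublet score over 0.35 (381 to 658 cells per pup).

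UMIs were summed per pup and class or gate and tested with edgeR 4.0.16 (quasi-likelihood, TMM, filterByExpr, R 4.3.3), gates with the pup as a block and genotype without, adjusted over all genes tested. DESeq2 1.42.0 was an alternative, as were RLE scaling, no low-count filter, doubled gate limits, other clusterings and leaving out each pup. The pups are separate animals of 1 litter, and the genotype p-values measure the spread between them. The gate p-values measure how differences between gates vary from pup to pup, pooled over all gates of the fit. The fits were tested on simulated data, where 2-fold changes in 200 genes were recovered in 197 in all chondrocyte-like cells, 115 in macrophage-like cells and 191 in Ihh over Col2a1. Of the calls made there by edgeR, 14.3%, 7.26% and 4.98% were false. The changed genes had at least 20 CPM, while in all chondrocyte-like cells Trpc1 was at 14.9 CPM and Trpv2 at 0.64 CPM. Recovery of genes as variable between pups as Trpv4 and Piezo2 was not read apart.

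The 6 channels were named in full. Of the other genes, those of the 4 lists and the 5 most alike in pattern were named, except for results that are not reported here. The members, lists and tests were chosen with earlier results of these data known. Cell counts and floors cover counting error only.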

Additional observations from a re-analysis of the deposited data

How the results depend on the processing

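The calls in the gates for Trpv4 in Postn over Col2a1 and for Trpv2 in Csf1r over Col2a1 held in every alternative run, and no alternative called a channel by genotype in all chondrocyte-like cells. The cause of the changes below was not tested. The genotype log2 fold changes in all chondrocyte-like cells, none of them called, changed sign for Trpm7 with DESeq2 (0.00807), RLE scaling (0.00811) and gates (0.0403), and for Trpv2 at a Leiden resolution of 0.8 (-0.0949) and with gates (-0.369). With 1 pup left out they ran from -0.163 to 0.523 for Trpv4, -0.202 to 0.451 for Piezo2, -0.202 to 0.103 for Trpc1, -0.0466 to 0.0171 for Trpm7 and -0.0790 to 0.258 for Trpv2. In pericyte-like cells 1 channel, Piezo2, was called with no low-count filter and 0 otherwise. In the main fit of that class 0 of 9639 genes were called. The share of all genes called without the filter is not given here, so nothing particular to Piezo2 is read from its call.

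In the gates, the channels called in Ihh over Col2a1 were 1, where 6875 of 13371 genes were called. They were 3 with no low-count filter (7054 of 29412 genes) and 2 with doubled limits (5845 of 12455 genes). With 1 pup left out they were 1 to 3, beside 5813 of 13454 to 6584 of 13860 genes. In Col10a1 over Ihh they were 2 (2169 of 13371 genes), and 1 with doubled limits (1348 of 12455 genes). With no replicate block, leaving the pup out of the fit, they were 1 and 2, beside 6282 and 1541 of 13371 genes. Each gate is drawn from the same animals, so the pairing by pup comes from the design. This pairing changed the call of Trpv4 in Tnmd over Postn and of Piezo1 in Csf1r over Col2a1 and no other. Values without a call changed sign for Trpc1 in Col10a1 over Ihh (0.0714, doubled limits) and in Postn over Col2a1 (0.0143 with DESeq2, 0.0139 with RLE, 0.104 with doubled limits, -0.113 to 0.0440 with 1 pup left out), and for Piezo2 in Postn over Col2a1 (0.335 with doubled limits, -0.0950 to 0.0250 with 1 pup left out). With 1 pup left out, Piezo1 in Ihh over Col2a1 ran from -0.139 to 0.0102, Trpv2 in Tnmd over Postn from -0.450 to 0.291 and Trpv4 in Pecam1 over Csf1r from -0.523 to 0.105. No paired analysis was possible because the pups' labels carry no number that pairs a mutant with a WT animal (genotype comparison).

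Between classes, the log2 ratios of proliferating-like over resting-like chondrocytes changed sign at a Leiden resolution of 0.8 for Trpv4 (-0.0877), Piezo1 (-0.533) and Trpc1 (-0.124), at 2.5 for Piezo1 (-0.0491) and Piezo2 (0.0674), and with a mitochondrial limit of 20% for Piezo1 (-0.155) and Piezo2 (0.216). At 0.8 so did Piezo2 in perichondrium-like (-0.115) and Piezo1 in macrophage-like over resting-like cells (-0.100), and after thinning Trpc1 in endothelium-like over macrophage-like (-1.04) and in pericyte-like over perichondrium-like cells (-0.462). Channels on the same side in every pup moved at 2.5 to 3 from 5 in proliferating- over resting-like, to 2 from 4 in perichondrium- over resting-like and to 4 from 2 in tendon- over perichondrium-like cells, and after thinning to 3 from 6 in synovial-lining- over perichondrium-like cells. The share of all genes on the same side in every pup is not given here, so nothing particular to the channels is read from these counts. The share of chondrocyte-like cells with a UMI, in the order Trpv4, Piezo1, Piezo2, Trpc1, Trpm7, Trpv2, was 70.0, 61.4, 19.2, 13.1, 69.8, 0.638% unthinned, 15.7, 12.6, 2.82, 1.52, 15.0, 0.0330% at 1000 UMIs and 63.0, 44.8, 13.8, 7.82, 55.4, 0.266% at 6000. Removing doublets by Scrublet's own threshold was not run, since it called 0 cells in WT pup 1, and the limit of 0.35 on its score was chosen after seeing the data.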
